A study of Mus musculus with 12 samples.

Results

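The 49 genes described here make, use or recycle glutathione, or belong to the antioxidant programme of the transcription factor NRF2. They were chosen by gene symbol, with earlier results of these data known, and are 49 of the 35275 genes in the deposited table of mouse liver RNA-seq. They comprise 23 glutathione S-transferases and 6 genes of glutathione synthesis and recycling, with the NRF2 gene *Nfe2l2*, its inhibitor *Keap1* and a set of peroxidases, thioredoxin genes and detoxifying enzymes. Whole livers came from wild-type (WT) mice and from *Pctp*-/- mice, which lack phosphatidylcholine transfer protein (PC-TP) in the whole body. Each genotype was fed chow or a methionine and choline-deficient (MCD) diet, so that 4 groups of 3 mice were sequenced at 1 library per mouse. The mice of the study were male, and the age at which these 12 were taken, the duration of the MCD diet and the strain background of the *Pctp*-/- line were not given in the sources used here.

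Glutathione is a tripeptide built from glutamate, cysteine and glycine in successive steps by glutamate-cysteine ligase and glutathione synthetase. The liver draws much of its cysteine from methionine, which the MCD diet withholds. Glutathione S-transferases (GSTs) couple glutathione to electrophiles, and glutathione peroxidases use it to reduce peroxides. KEAP1 holds NRF2 in check by directing it to degradation, and oxidants or electrophiles release it to bind antioxidant response elements near its target genes. Since that control acts mainly on the protein, the level of *Nfe2l2* mRNA is not a measure of NRF2 activity.

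Levels are given as FPKM (fragments scaled to transcript length and to the mapped fragments of the library) as the authors deposited them. Differences are log2 fold changes of FPKM + 1 with their standard error (SE), and a gene was called changed at a Benjamini-Hochberg adjusted p under 0.05 in limma over all 12466 genes tested. On this scale the change of a gene with few FPKM is understated. Of the members, 48 passed the filter of a mean of at least 0.5 FPKM over the 12 libraries. *Gsto2*, an omega-class GST, did not pass, with values from 0.0564 to 0.408 FPKM. *Mgst2* passed the filter only through mice on MCD and *Cbr3* only through WT mice on MCD, so that a rise in those mice was set by the filter. Uniquely mapped reads numbered 30486576 to 55179468 in the chow libraries and 33463498 to 46246856 in the MCD libraries. Unique mapping took 77.59% to 79.41% of the reads in chow libraries, where 86.29% to 87.1% of bases reached quality 30. In MCD libraries these shares were higher, 85.66% to 87.55% and 93.47% to 94.58%. Diet and these sequencing differences cannot be told apart. The targeted gene, *Pctp*, was at 1.21 to 2.65 FPKM in WT and 0.330 to 0.566 in *Pctp*-/- mice on chow, and at 3.61 to 7.90 and 0.156 to 0.329 on MCD. No *Pctp*-/- library overlapped a WT library for this gene.

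Antioxidant response elements have a short core, written here as TGACNNNGC, in which N is any base. The core was sought on both strands in the RefSeq promoter windows of build GRCm38.p6, which run from 250 bases before to 50 bases after each transcript start. Of the 42 members with a window, 13 (31.0%) held it, as did 3781 of 27025 genes (14.0%). The same core followed by A was in 3 members (7.14%) and in 3.45% of all genes. Members whose window held the shorter core were *Gsta3*, *Gstm5*, *Gstm7*, *Mgst1*, *Gclm*, *Ggct*, *Nfe2l2*, *Txnrd1*, *Srxn1*, *Prdx1*, *G6pdx*, *Pgd* and *Sod1*. It was in the windows of 8 of 20 members called higher on MCD in WT mice, of 1 of 12 called lower and of 4 of 9 not called. These matches are letters in a window, and no binding was measured. No window was read for *Gsta4*, *Gstt2*, *Gclc*, *Gsr*, *Oplah*, *Prdx6* or *Hmox1*.

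The stretches just upstream of the 4 GST genes called between the genotypes on MCD are given first, since the comparison of the genotypes turned on them, and then those of *Gclm*, *Prdx1* and *Ggct*, which hold the core and whose values contrast further on. Each is written 5′ to 3′ on its gene's strand in GRCm38.p6 (RefSeq), up to the first annotated exon base, with the core in capitals on whichever strand it lay.
Gsta1, chr9:78230419-78230655, plus strand: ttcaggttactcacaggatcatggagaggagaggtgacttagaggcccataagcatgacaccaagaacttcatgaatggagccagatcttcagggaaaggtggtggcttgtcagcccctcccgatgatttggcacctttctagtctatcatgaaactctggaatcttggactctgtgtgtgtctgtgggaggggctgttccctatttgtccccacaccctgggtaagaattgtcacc
Gstm1, chr3:108017974-108018223, minus strand: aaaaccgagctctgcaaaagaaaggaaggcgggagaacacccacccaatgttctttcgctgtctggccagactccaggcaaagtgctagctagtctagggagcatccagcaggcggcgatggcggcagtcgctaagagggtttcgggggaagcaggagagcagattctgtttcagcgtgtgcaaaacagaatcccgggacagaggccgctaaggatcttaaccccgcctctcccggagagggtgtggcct
Gstm2, chr3:107986454-107986670, minus strand: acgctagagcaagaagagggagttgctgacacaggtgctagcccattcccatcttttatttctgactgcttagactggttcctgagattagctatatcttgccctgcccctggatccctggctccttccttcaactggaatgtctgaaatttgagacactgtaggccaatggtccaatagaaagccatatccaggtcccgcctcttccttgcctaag
Gstm3, chr3:107969284-107969424, minus strand: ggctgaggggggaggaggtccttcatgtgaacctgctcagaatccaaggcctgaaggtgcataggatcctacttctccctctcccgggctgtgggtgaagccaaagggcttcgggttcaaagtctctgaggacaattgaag
Gclm, chr3:122245307-122245556, plus strand: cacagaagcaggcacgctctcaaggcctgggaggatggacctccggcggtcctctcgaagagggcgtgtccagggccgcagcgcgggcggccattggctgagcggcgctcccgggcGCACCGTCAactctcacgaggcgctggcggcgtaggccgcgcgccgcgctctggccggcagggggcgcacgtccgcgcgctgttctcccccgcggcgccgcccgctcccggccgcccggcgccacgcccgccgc
Prdx1, chr4:116685349-116685543, plus strand: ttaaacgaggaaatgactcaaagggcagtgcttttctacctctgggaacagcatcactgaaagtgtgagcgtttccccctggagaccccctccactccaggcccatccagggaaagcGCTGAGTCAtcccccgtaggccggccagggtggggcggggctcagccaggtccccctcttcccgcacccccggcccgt
Ggct, chr6:54992951-54993117, minus strand: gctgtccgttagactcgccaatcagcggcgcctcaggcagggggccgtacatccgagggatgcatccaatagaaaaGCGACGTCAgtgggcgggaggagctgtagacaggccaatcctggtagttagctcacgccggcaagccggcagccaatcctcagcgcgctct
In these stretches the 4 GST genes held no core, and the match began 134 bases before the transcript start in *Gclm*, 133 in *Prdx1* and 174 in *Ggct*. In *Prdx1* and *Ggct*, as in *Gclm*, the match was on the opposite strand. The *Prdx1* match also spells, on that strand, TGACTCA, the site known for AP-1 factors, so the motifs cannot be told apart there.

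In WT mice the MCD diet changed most of these genes, in both directions. Of 48 members tested, 22 were higher and 13 lower on MCD, 72.9% in all, against 57.0% of all genes tested (34.5% higher and 22.5% lower). The median log2 fold change was 0.15 in the members and 0.11 over all genes. That median over all genes moved by about 0.1 with the scaling, to 0.01 after quantile normalization and to -0.002 after median-of-ratios scaling. The calls over all genes went from 4300 higher and 2810 lower to 3539 and 3531 with median-of-ratios scaling. Those of the members became 22 higher and 15 lower with each scaling. In *Pctp*-/- mice 17 members were higher and 15 lower, 66.7% in all, against 50.3% of all genes (26.0% higher and 24.4% lower). The median was -0.05 in the members and 0.04 over all genes. Across the genotypes, 16 members (33.3%) were called higher in each, against 22.6% of all genes, and 12 (25%) lower in each, against 18.1%. None was called in opposite directions, against 0.16% of all genes. Without *Mgst2* and *Cbr3*, 20 of 46 members were higher and 13 lower in WT and 16 higher and 15 lower in *Pctp*-/- mice.

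Of the genes of glutathione synthesis and recycling, *Gclc*, *Gclm*, *Gss* and *Gsr* differed between the diets by less than 1 on the log2 scale. *Gclc*, the catalytic subunit of glutamate-cysteine ligase, was at 185, 127 and 143 FPKM in WT mice on chow and at 238, 215 and 191 on MCD, which did not overlap (log2 fold change 0.51, SE 0.15, limma adjusted p = 0.0105), a call lost without WT replicate 2 on chow (adjusted p = 0.0527). Its levels in *Pctp*-/- mice were 203, 151 and 162 on chow and 201, 189.9 and 184 on MCD, and the difference was not called (0.16, adjusted p = 0.373). *Gclm*, the modifier subunit, was not called in either genotype, with group means of 51.7, 55.6, 56.3 and 54.0 FPKM in WT and *Pctp*-/- mice on chow and WT and *Pctp*-/- mice on MCD. Its mice on MCD spanned 50.9 to 57.2 FPKM. Without WT replicate 1 on chow *Gclm* was called higher on MCD in WT mice (0.26, adjusted p = 0.0192). *Gss*, glutathione synthetase, rose in WT mice from 22.0, 20.5 and 21.8 to 43.1, 35.4 and 32.3 FPKM (0.75, SE 0.12, adjusted p = 0.000283), and the change in *Pctp*-/- mice, to 27.2, 25.4 and 25.9, was not called (0.24, adjusted p = 0.119). *Gsr*, the reductase that regenerates glutathione, was not called in WT mice (0.18, adjusted p = 0.247) and fell in *Pctp*-/- mice from a mean of 39.3 ± 2.92 to 28.1 ± 2.78 FPKM (SD, n = 3, -0.47, adjusted p = 0.00764). Without WT replicate 1 on chow *Gsr* was called higher on MCD in WT mice (0.31, adjusted p = 0.0374).

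Larger changes were in *Ggct* and *Oplah*, on the side of the γ-glutamyl cycle that salvages the amino acids of glutathione. *Ggct*, which releases 5-oxoproline from γ-glutamyl peptides, was at 1.28, 1.17 and 1.07 FPKM in WT mice on chow and at 9.18, 8.52 and 9.02 on MCD (2.19, SE 0.12, limma adjusted p = 8.91e-08). The *Pctp*-/- mice went from 1.15, 1.39 and 1.20 to 7.47, 6.55 and 5.11 (1.70, SE 0.12, adjusted p = 6.18e-07). The 6 chow mice thus lay from 1.07 to 1.39 and the 6 MCD mice from 5.11 to 9.18. *Oplah*, 5-oxoprolinase, which turns that product into glutamate, moved the other way, from a mean of 54.8 to 18.2 FPKM in WT (-1.54, SE 0.16, adjusted p = 8.88e-06) and from 48.2 to 19.7 in *Pctp*-/- mice (-1.28).

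*Nfe2l2* mRNA rose on MCD in both genotypes, from 26.1, 29.98 and 37.3 to 55.2, 45.4 and 39.0 FPKM in WT mice (0.57, SE 0.15, limma adjusted p = 0.00776). It rose in *Pctp*-/- mice from 27.8, 25.3 and 27.05 to 44.6, 39.8 and 54.0 (0.76, SE 0.15, adjusted p = 0.00156). In neither genotype did the mice on chow overlap those on MCD. *Keap1* was not called, with means of 12.7, 13.1, 11.2 and 10.7 FPKM in WT and *Pctp*-/- mice on chow and in WT and *Pctp*-/- mice on MCD (-0.16 with diet in WT, adjusted p = 0.252). It was called lower on MCD in WT mice after quantile normalization (-0.25, adjusted p = 0.0464) and median-of-ratios scaling (-0.29, adjusted p = 0.0288). In *Pctp*-/- mice it was called lower after median-of-ratios scaling (-0.31, adjusted p = 0.0221) and without WT replicate 1 on chow (-0.27, adjusted p = 0.0297).

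Of the named NRF2 target genes, *Nqo1*, *Hmox1* and *Srxn1* rose in both genotypes and *Txnrd1* in WT mice. *Nqo1*, a quinone reductase, was at 2.73, 1.97 and 2.86 FPKM on chow and 11.995, 7.57 and 6.19 on MCD in WT mice (1.41, SE 0.21, limma adjusted p = 0.000152). The *Pctp*-/- mice were at 3.33, 2.70 and 1.87 on chow and 6.61, 7.09 and 8.56 on MCD (1.23, SE 0.21, adjusted p = 0.000505). Its level on MCD was thus similar in range between the genotypes. *Hmox1*, heme oxygenase, which macrophages also express, rose from 15.7, 10.2 and 13.0 to 61.4, 43.5 and 40.8 in WT (1.83, SE 0.24, adjusted p = 6.11e-05) and from 18.0, 7.93 and 14.0 to 27.4, 30.1 and 30.5 in *Pctp*-/- mice (1.15, SE 0.24, adjusted p = 0.00202). *Srxn1*, sulfiredoxin, which restores overoxidised peroxiredoxins, rose from 12.5, 11.2 and 12.6 to 126, 57.7 and 41.0 in WT (2.37, SE 0.28, adjusted p = 2.66e-05) and from 14.1, 14.4 and 13.5 to 27.03, 23.3 and 27.5 in *Pctp*-/- mice (0.84, SE 0.28, adjusted p = 0.0263). The 3 WT mice on MCD spread widely for this gene, with replicate 1 far above the others, and the call in *Pctp*-/- mice was lost without replicate 2 or 3 on chow or 1 or 3 on MCD (adjusted p up to 0.0714). *Txnrd1*, the cytosolic thioredoxin reductase, rose less in WT mice (0.51, SE 0.13, adjusted p = 0.00536) and was not called in *Pctp*-/- mice (0.05, adjusted p = 0.779).

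Of the remaining thioredoxin and NADPH genes, *Pgd* of the pentose phosphate pathway, a source of NADPH, had the largest rise. It went from 10.8, 9.12 and 10.1 to 44.1, 39.5 and 34.2 FPKM in WT mice (1.87, SE 0.15, limma adjusted p = 1.39e-06) and from 15.8, 10.7 and 10.5 to 24.3, 22.3 and 27.8 in *Pctp*-/- mice (0.97). Thioredoxin, *Txn1*, and the peroxiredoxin *Prdx1* rose in WT mice by the same 0.89 and in *Pctp*-/- mice by 0.58 and 0.80. *G6pdx*, the first enzyme of the same pathway, rose by 0.52 in WT and 0.45 in *Pctp*-/- mice, and *Taldo1*, transaldolase of its other branch, fell by 0.33 and 0.62. *Prdx6* was not called in either genotype.

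Genes that remove hydrogen peroxide and superoxide did not move as a group. *Cat*, catalase, a peroxisomal enzyme, was at 1193, 1225 and 1233 FPKM in WT mice on chow and at 514, 505 and 540.5 on MCD (-1.23, SE 0.09, limma adjusted p = 5.77e-07). It was, in *Pctp*-/- mice, at 1285, 1155 and 1109 and then at 513, 572 and 584 (-1.09, SE 0.09, adjusted p = 1.86e-06). These mice separated by diet with no overlap and not by genotype. *Gpx1*, the most abundant glutathione peroxidase among the 3 members, fell from a mean of 1753 to 1061 FPKM in WT and from 1916 to 1068 in *Pctp*-/- mice. *Gpx4*, which reduces phospholipid hydroperoxides, rose from 173, 199 and 193 to 558, 443 and 408 in WT mice (1.31, SE 0.13, adjusted p = 7.32e-06) and from 202, 209 and 245 to 328, 271 and 265 in *Pctp*-/- mice (0.39, SE 0.13, adjusted p = 0.0255). The latter call was lost without *Pctp*-/- replicate 1 or 2 on chow or 1 on MCD (adjusted p up to 0.11). *Gpx3*, the secreted form, rose from 1.66 to 5.52 in WT and from 1.25 to 4.93 in *Pctp*-/- mice (means; 1.27 and 1.39). *Sod1*, cytosolic superoxide dismutase, was not called in WT mice (-0.21, adjusted p = 0.162), a difference that turned to 0.19 after quantile normalization. Without WT replicate 1 on chow it was called lower in WT mice (-0.35, adjusted p = 0.0134). In *Pctp*-/- mice *Sod1* was called lower (-0.40, adjusted p = 0.016), a call lost after quantile normalization (adjusted p = 0.704) and without *Pctp*-/- replicate 3 on chow or 1 on MCD (adjusted p up to 0.0561).

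**Figure D1:**
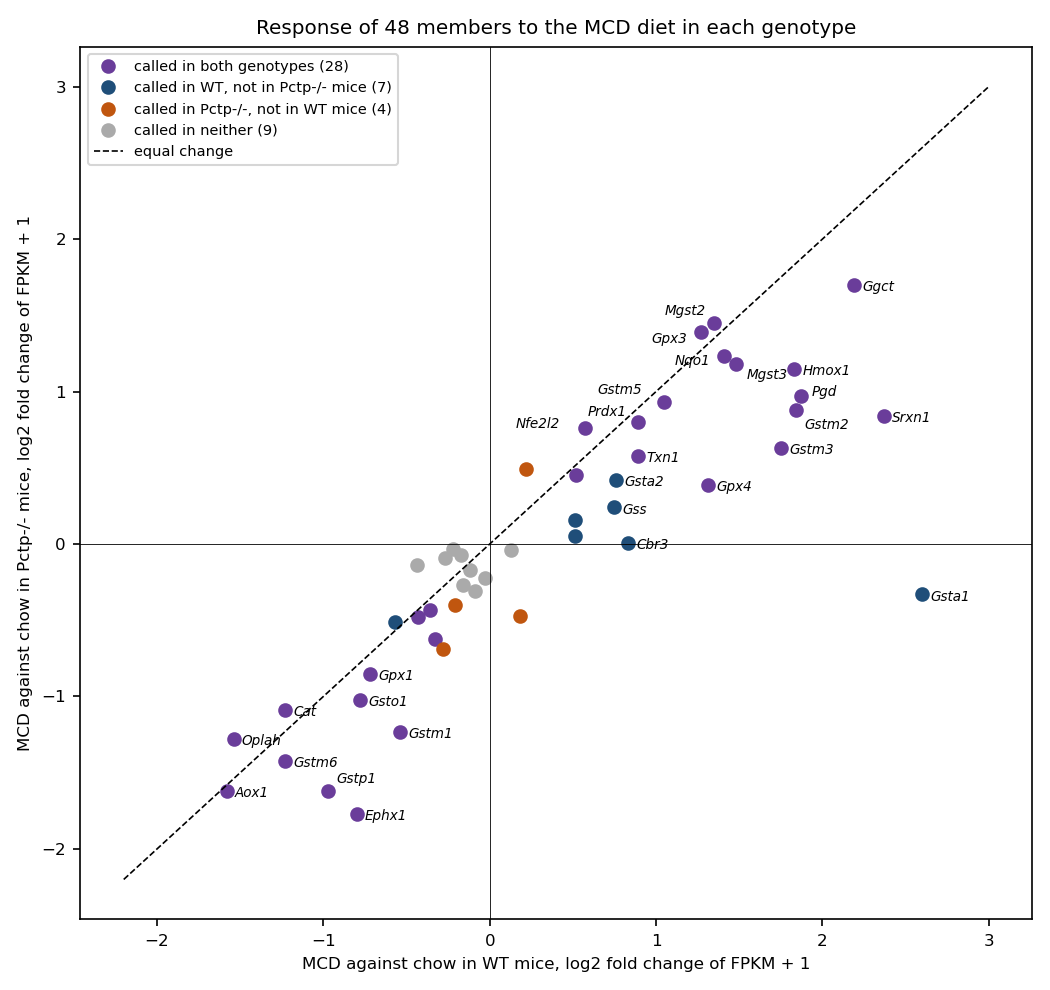
Log2 fold change of FPKM + 1 on MCD against chow in WT mice (horizontal) and in *Pctp*-/- mice (vertical), 1 point for each of the 48 members tested, coloured by the genotype in which it was called. The dashed line marks equal change, 28 members were called in both genotypes, and *Gsta1*, *Srxn1* and *Gpx4* lay below the line on the right.

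Among the 22 GST genes tested, 7 rose and 7 fell on MCD in WT mice (31.8% each, against 34.5% and 22.5% of all genes). In *Pctp*-/- mice 6 rose and 7 fell (27.3% and 31.8%, against 26.0% and 24.4%). The rises in each genotype include *Mgst2*, which passed the filter only through mice on MCD. The mu and microsomal classes held calls in both directions in WT mice, and the other 4 classes in 1 direction. The mu-class genes lie in a cluster on chromosome 3 and yet differed: *Gstm2* rose in WT mice from 53.3, 68.9 and 57.5 to 255, 217 and 182 FPKM (1.84, SE 0.13, limma adjusted p = 5.08e-07). *Gstm3* rose from 88.8, 100.5 and 112 to 484, 331 and 244 (1.75, SE 0.22, adjusted p = 4.46e-05), and *Gstm5* from a mean of 4.74 to 10.6. *Gstm1* and *Mgst1* were the most abundant GSTs in WT mice on chow, with close means of 1550.6 and 1527.5 FPKM. *Gstm1* fell from 1417, 1454 and 1781 to 1164, 1114 and 923 (-0.54, SE 0.14, adjusted p = 0.00584), a call lost after quantile normalization (adjusted p = 0.138). *Gstm6* fell from a mean of 86.7 to 36.0 (-1.23, SE 0.14, adjusted p = 1.38e-05). Thus neighbouring members of one cluster moved in opposite directions in the same mice.

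In *Pctp*-/- mice the same mu-class genes were called in the same directions. *Gstm2* rose from 64.7, 58.1 and 56.9 to 117, 103 and 113 FPKM (0.88, SE 0.13, limma adjusted p = 0.000159) and *Gstm3* from 80.6, 108 and 68.7 to 132, 113 and 149 (0.63, SE 0.22, adjusted p = 0.0348). The *Gstm3* call was lost without replicate 1 or 3 of either diet (adjusted p up to 0.128). *Gstm1* fell from 1401, 1554 and 1371 to 605, 524 and 729 (-1.23, SE 0.14, adjusted p = 2.39e-05). *Gstm4* was called lower in *Pctp*-/- mice (-0.69) and not in WT mice (-0.28, adjusted p = 0.0716), and *Gstm7* was called in neither.

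Of the alpha class, *Gsta1* and *Gsta2* were called higher in WT mice on MCD and *Gsta3* and *Gsta4* were not called in either genotype. Among the members with chow values over 0.5 FPKM, *Gsta1* had the largest change on the log2(FPKM + 1) scale in WT mice, from 5.14, 3.84 and 6.41 to 108, 34.3 and 11.7 FPKM (2.60, SE 0.58, limma adjusted p = 0.00226). The 3 MCD mice were far apart, though each lay above the chow mice. Summed with its relatives *Gsta2* and *Gm10639* the change was 1.15, below that of *Srxn1* or *Ggct*. *Gsta2* made up most of that sum on chow, with a mean of 56.9 FPKM in WT mice against 5.13 for *Gsta1*. Of its own 100-base stretches, 35.0% occur in other genes. For *Pctp*-/- mice *Gsta1* was at 4.601, 8.72 and 3.87 on chow and 6.26, 2.91 and 3.71 on MCD (-0.33, SE 0.58, adjusted p = 0.66). *Gstp1*, of the pi class, shares 52.8% of its 100-base stretches with *Gstp2* and a pseudogene. It fell in both genotypes, from 979.6, 1344 and 1115 to 730, 582 and 463 in WT (-0.97, SE 0.27, adjusted p = 0.00879) and from 795, 1614 and 701 to 300.3, 283 and 361 in *Pctp*-/- mice (-1.62, SE 0.27, adjusted p = 0.000378). Among microsomal members, *Mgst1* fell in both genotypes (-0.36 and -0.43) and *Mgst3* rose (1.48 and 1.18). *Mgst2* was at 0, 0 and 0.046 FPKM in WT mice and 0.0355, 0 and 0 in *Pctp*-/- mice on chow, against 1.67, 1.54 and 1.56 and then 1.65, 1.99 and 1.66 on MCD. No fold is given for it.

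Other GST genes that fell were *Gsto1*, of the omega class, from a mean of 56.1 to 32.3 FPKM in WT and from 61.1 to 29.8 in *Pctp*-/- mice (-0.78 and -1.02), and *Gstt1*, of the theta class (-0.43 and -0.48). *Gstt3* fell in WT mice (-0.57, limma adjusted p = 0.0369) and was not called in *Pctp*-/- mice (-0.51, adjusted p = 0.0648), and 23.9% of its 100-base stretches occur in another gene.

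Of the detoxification enzymes that do not use glutathione, *Ephx1* and *Aox1* fell on MCD, while *Nqo1* and *Hmox1*, given above, rose. *Ephx1*, microsomal epoxide hydrolase, went from 366, 337 and 454 to 245, 233 and 186 FPKM in WT mice (-0.80, SE 0.14, limma adjusted p = 0.00054). It went in *Pctp*-/- mice from 451, 419 and 344 to 108, 116 and 128 (-1.77, SE 0.14, adjusted p = 1.86e-06), the largest fall of any member there. *Aox1*, aldehyde oxidase, fell by 1.58 in WT and 1.62 in *Pctp*-/- mice. *Cbr3*, a carbonyl reductase, was at 3.50, 1.04 and 0.719 in WT mice on MCD and at 0.331 to 0.539 on chow, and in *Pctp*-/- mice at 0.294 to 0.637 on MCD and 0.326 to 0.709 on chow. No fold is given for it, since it passed the filter mainly through WT replicate 1 on MCD.

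**Figure D2:**
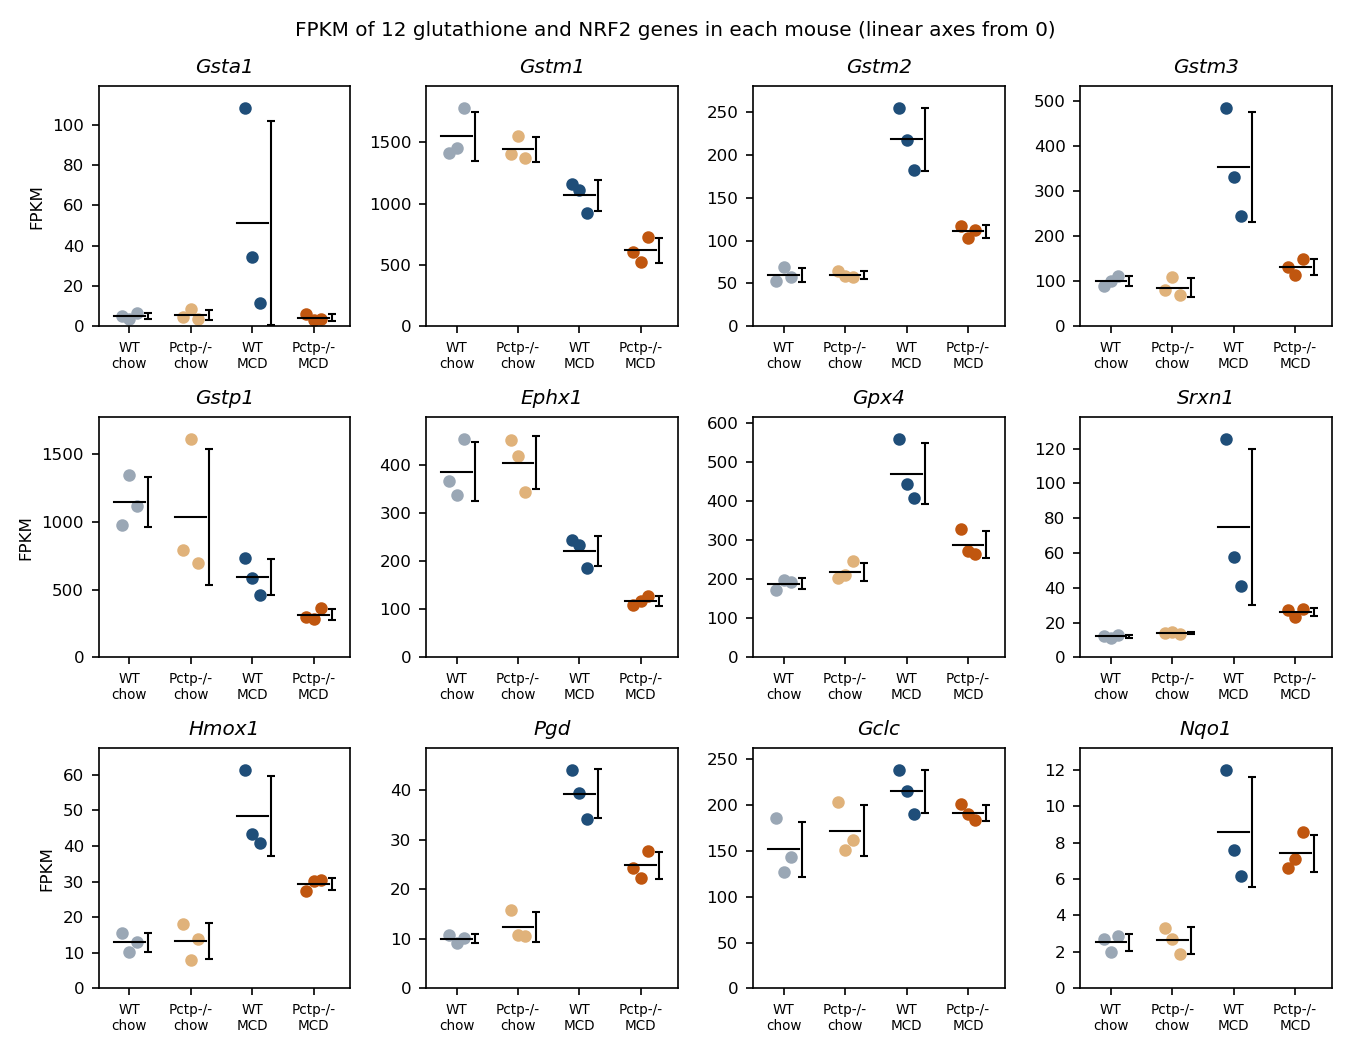
FPKM of 12 members in each mouse on linear axes that start at 0, with the mean (line) and SD (bar) of the 3 mice in each group. *Gsta1* reached 108 FPKM in WT replicate 1 on MCD and lay between 2.91 and 8.72 in the *Pctp*-/- mice of both diets, while *Nqo1* overlapped between the genotypes on MCD.

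The question of what PC-TP changes on chow gave no call in this group of genes. On chow, 0 of 48 members were called between *Pctp*-/- and WT mice by limma, against 0.136% of all genes tested. At an unadjusted p under 0.05 there was 1 member (2.08%), against 6.98% of all genes. It was *Gstp2*, at 7.10, 7.28 and 9.29 FPKM in WT and 4.39, 6.73 and 3.59 in *Pctp*-/- mice (-0.62, SE 0.19, limma adjusted p = 0.4). Since 63.5% of its 100-base stretches also occur in the far more abundant *Gstp1* or a pseudogene, its level is uncertain. The median difference over the members was 0.02. The *Pctp*-/- mouse numbered 2 had 1614 FPKM of *Gstp1* against 795 and 701 in the others, and WT mice lay between 979.6 and 1344.

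On MCD, 6 members were called, all lower in *Pctp*-/- mice. They were *Gsta1*, *Gstm1*, *Gstm2*, *Gstm3*, *Ephx1* and *Gpx4*, 12.5% of the members tested against 0.818% of all genes (0.297% higher and 0.521% lower). At an unadjusted p under 0.05 there were 20 members, all lower (41.7%), against 16.3% of all genes, with 13.0% lower. These counts moved with the scaling, to 19 lower and 5 higher after quantile normalization and to 16 lower and 1 higher after median-of-ratios scaling, while the calls over all genes went from 37 higher and 65 lower to 67 and 41, and to 25 and 30. The 6 members were lower under each of these scalings, but 4 and 2 of them remained called. When only the 6 MCD libraries were fitted, 0 were called, and the calls over all genes went from 102 to 19. With each library left out in turn, 1 to 7 members were called, beside 27 to 173 calls over all genes. In 20 members every *Pctp*-/- mouse lay below every WT mouse (41.7%, against 21.1% of all genes), and in 0 members every one lay above (5.5% of all genes). The median difference was -0.18 over the members and -0.09 over all genes, and -0.09 and -0.002 after quantile normalization. With 3 mice against 3, no exact permutation test of a single value could go below a two-sided p of 0.1, so each call rests on the spread shared across genes.

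*Gstm2* (ENSMUSG00000040562, chr3:107981702-107986453, minus strand, GRCm38) was at 255, 217 and 182 FPKM in WT and at 117, 103 and 113 in *Pctp*-/- mice on MCD. All 3 *Pctp*-/- mice were below the lowest WT mouse, and the means differed 1.96-fold (-0.96, SE 0.13, limma adjusted p = 0.00502). *Gstm3* (ENSMUSG00000004038, chr3:107963696-107969283, minus strand) was at 484, 331 and 244 against 132, 113 and 149, again without overlap (-1.37, SE 0.22, adjusted p = 0.0188, 2.68-fold). *Gstm1* (ENSMUSG00000058135, chr3:108012255-108017973, minus strand) was at 1164, 1114 and 923 against 605, 524 and 729 (-0.79, SE 0.14, adjusted p = 0.023, 1.72-fold). *Pctp*-/- mice on MCD were thus below the chow mice of either genotype for *Gstm1* and above all of them for *Gstm2* and *Gstm3*. None of the 3 was called on chow (-0.10, 0.01 and -0.24). The other mu-class genes *Gstm4*, *Gstm5*, *Gstm6* and *Gstm7* were not called on MCD.

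*Gsta1* (ENSMUSG00000074183, chr9:78230656-78242684, plus strand) had the largest difference among the members, at 108, 34.3 and 11.7 FPKM in WT against 6.26, 2.91 and 3.71 in *Pctp*-/- mice (-2.84, SE 0.58, limma adjusted p = 0.0467). The lowest WT mouse still lay above the highest *Pctp*-/- mouse. Of its transcript, 81.8% of 100-base stretches also occur in transcripts of other genes, so reads could be assigned to any of them. *Gm3776* shares the most of these stretches, followed by *Gsta2* and *Gm10639*. No deposited values matched the symbol *Gm3776*, so it is missing from the sum. Summed over *Gsta1*, *Gsta2* and *Gm10639* the levels were 247, 126 and 83.3 against 70.8, 56.8 and 76.2 FPKM, and the call was lost (-1.02, SE 0.31, adjusted p = 0.141). Without WT replicate 1 on MCD the difference for *Gsta1* alone was -2.05 and was not called (adjusted p = 0.0726). *Gsta2* itself was at 134, 89.7 and 70.4 against 64.0, 53.7 and 71.8, which overlapped (-0.58, adjusted p = 0.234).

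*Ephx1* (ENSMUSG00000038776, chr1:180976210-181020904, minus strand) was at 245, 233 and 186 FPKM in WT and 108, 116 and 128 in *Pctp*-/- mice on MCD (-0.90, SE 0.14, limma adjusted p = 0.0153, 1.89-fold). It was one of the members that fell with diet in WT mice, and the *Pctp*-/- mice lay lower still. *Gpx4* (ENSMUSG00000075706, chr10:80047166-80056439, plus strand) was at 558, 443 and 408 against 328, 271 and 265 (-0.70, SE 0.13, adjusted p = 0.0317, 1.63-fold). It rose with diet in both genotypes. For *Gpx4*, 48.4% of 100-base stretches also occur in transcripts of other genes, a pseudogene among them, so its level is uncertain.

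**Figure D3:**
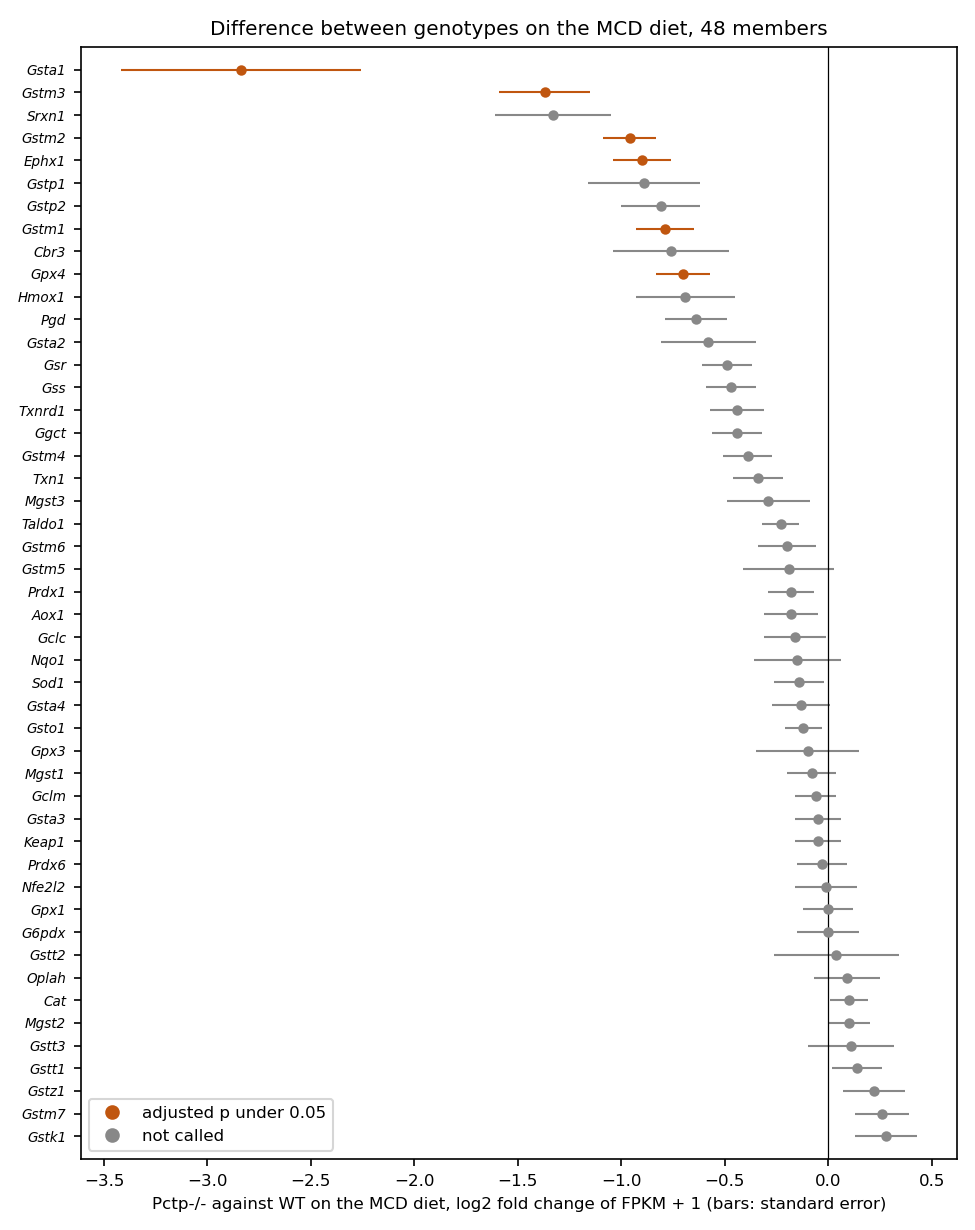
Log2 fold change of FPKM + 1 between *Pctp*-/- and WT mice on MCD for the 48 members tested, in order of size, with bars of 1 SE. The 6 called members are in orange and lie between -2.84 (*Gsta1*) and -0.70 (*Gpx4*), and *Srxn1* at -1.33 was not called.

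Several further members had groups that did not overlap and were not called. *Srxn1* was at 126, 57.7 and 41.0 FPKM in WT and 27.03, 23.3 and 27.5 in *Pctp*-/- mice (-1.33, SE 0.28, limma adjusted p = 0.0552). *Pgd* was at 44.1, 39.5 and 34.2 against 24.3, 22.3 and 27.8 (-0.64, adjusted p = 0.082). *Hmox1* was at 61.4, 43.5 and 40.8 against 27.4, 30.1 and 30.5 (-0.69, adjusted p = 0.192). For *Gstp1* the values were 730, 582 and 463 against 300.3, 283 and 361 (-0.89, adjusted p = 0.136). Among synthesis and recycling genes the differences were -0.47 for *Gss* (adjusted p = 0.0996), -0.49 for *Gsr* (adjusted p = 0.0936) and -0.44 for *Ggct* (adjusted p = 0.109). *Txnrd1* differed by -0.44 (adjusted p = 0.134). 

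Other NRF2 and glutathione genes lay close between the genotypes on MCD. For *Nfe2l2* the difference was -0.01, with a 95% interval of -0.34 to 0.33 (limma adjusted p = 0.987), and for *Keap1* it was -0.05 (-0.30 to 0.19). For *Nqo1* it was -0.15 (-0.61 to 0.31), for *Gclc* -0.16 (-0.48 to 0.16) and for *Gclm* -0.06 (-0.28 to 0.17). The intervals leave room for changes of moderate size, most of all in *Nqo1*. *Cat* differed by 0.10 (-0.10 to 0.29), *Sod1* by -0.14 (-0.41 to 0.12) and *Gpx1* by 0.00 (-0.25 to 0.26). For *Nfe2l2*, *Keap1* and *Gclm* the sign turned under quantile normalization and median-of-ratios scaling.

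Summed over the 23 GST genes, WT mice had 5174, 6428 and 6516 FPKM on chow and 5272, 5062 and 4673 on MCD. The *Pctp*-/- mice had 5510.4, 6394 and 5488 on chow and 3803, 3571 and 4229.7 on MCD, where all 3 lay below every other mouse. In percent of all FPKM this was 1.12 to 1.30 in WT and 1.09 to 1.30 in *Pctp*-/- mice on chow, and 0.876 to 1.03 and 0.702 to 0.817 on MCD. The mu class made up most of the gap on MCD, with 2028, 1799.8 and 1485 FPKM in WT and 984, 859 and 1117 in *Pctp*-/- mice. The pi class gave 739.7, 589 and 471 against 305, 287 and 365. Microsomal GSTs, led by *Mgst1*, overlapped at 1141, 1244 and 1266 against 1173, 1077 and 1184.

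**Figure D4:**
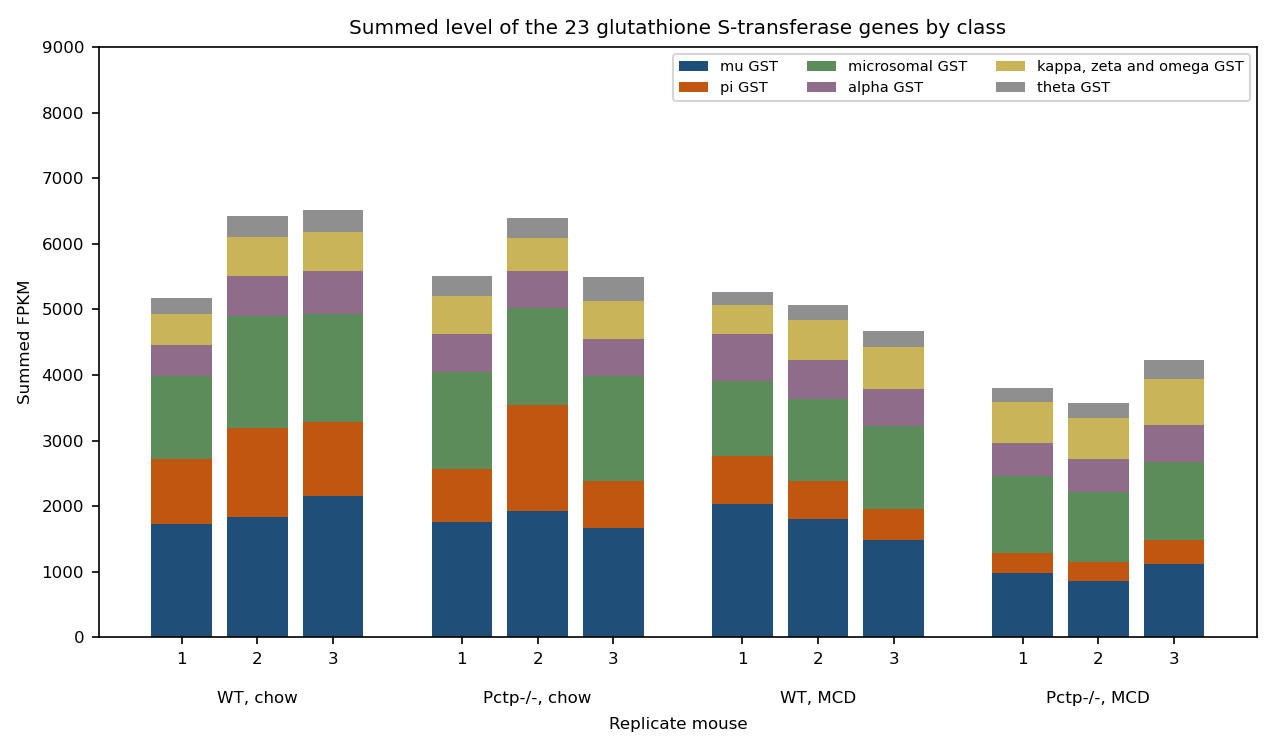
Summed FPKM of the 23 GST genes in each mouse, stacked by class from 0, with 3 mice in each of the 4 groups. The 3 *Pctp*-/- mice on MCD had the lowest sums, 3571 to 4229.7, and the mu class (bottom block) was 859 to 1117 in them and 1485 to 2028 in WT mice on MCD.

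Whether diet acted differently in the genotypes was tested as the difference of the diet effects. None of 48 members was called by limma, against 0.0963% of all genes, and 14 (29.2%) had an unadjusted p under 0.05, all lower in *Pctp*-/- mice, against 15.1% of all genes, with 11.2% lower. The estimate for *Gstm2* was -0.96 (SE 0.18, adjusted p = 0.0694), for *Gpx4* -0.91 (SE 0.19, adjusted p = 0.0775) and for *Ephx1* -0.97 (SE 0.20, adjusted p = 0.0823). For *Gsta1* it was -2.93 (SE 0.82, adjusted p = 0.143) and for *Srxn1* -1.53 (SE 0.40, adjusted p = 0.136). That *Gsta1*, *Gclc*, *Gss* and *Txnrd1* were called with diet in WT and not in *Pctp*-/- mice is therefore no called difference between the genotypes. Without WT replicate 3 on MCD, 5 members were called (*Ephx1*, *Gpx4*, *Gsta1*, *Gstm2* and *Srxn1*), while the calls over all genes went from 12 to 60.

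A further 70 genes of the same pathways, 61 of which were tested, were examined beside the members. With diet, 26 rose and 12 fell in WT mice (62.3% in all, against 57.0% of all genes), and 17 rose and 16 fell in *Pctp*-/- mice (54.1%, against 50.3%). Among the tested genes, *Hpgds*, *Gpx8* and *Abcc4* passed the filter only through mice on MCD, so that they had to differ. Their group means were 0.0914 to 0.482 FPKM on chow and 0.694 to 1.41 on MCD. The counts were not repeated without them. The largest called rises in WT mice were in *Mt2*, a metallothionein (1.95), *Osgin1* (1.88), *Gpx7* (1.69), *Prdx3*, the mitochondrial peroxiredoxin (1.29), *Mt1* (1.29) and *Chac2*, which degrades glutathione (1.08). Without WT replicate 1 on chow, *Mt2* and *Mt1* were at 1.12 and 0.66 and were not called (limma adjusted p = 0.101 and 0.136). The largest falls were in *Abcc3*, a transporter of conjugates (-2.07), *Akr7a5* (-1.71), *Glo1*, the glyoxalase that works with glutathione (-1.31), *Sephs2* (-1.26), *Sod3* (-0.83) and *Hagh* (-0.76). On chow 0 were called between the genotypes by limma, with 4.92% at an unadjusted p under 0.05, against 6.98% of all genes. On MCD 2 were called (3.28%, against 0.818%), both lower in *Pctp*-/- mice. *Ugdh*, which makes UDP-glucuronic acid for another conjugation route, was at 106, 82.0 and 76.3 FPKM against 48.1, 49.0 and 55.9 (-0.76, SE 0.12, limma adjusted p = 0.0171). *Ftl1*, ferritin light chain, was at 7114, 7715 and 6268 against 4265, 3800.2 and 4777 (-0.72, SE 0.12, adjusted p = 0.0189).

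Measures of the libraries and of other cell types moved beside these results, and their part in them was not tested. Both MCD groups were uneven for these genes. *Pctp*-/- replicate 3 on MCD had the highest value of its group for 30 of 48 members (62.5%), against 39.9% of all genes tested. *Pctp*-/- replicate 2 on MCD had it for 2 members (4.17%), against 25.4%. WT replicate 1 on MCD had the highest value of its group for 31 of 48 members (64.6%), against 48.0% of all genes tested. Without it, 3 members were called between the genotypes on MCD (*Gstm2*, *Gstm3* and *Srxn1*). The count was 1 without WT replicate 2 and 1 without *Pctp*-/- replicate 2, *Gstm2* in both cases, and 3 without *Pctp*-/- replicate 3 (*Ephx1*, *Gstm1* and *Gstm2*). Over all genes these fits gave, in the same order, 51, 35, 27 and 29 calls, against 102 with every library. All 5 hepatocyte markers were present, with sums of 38789 to 43793 FPKM on chow, 52042 to 58998 in WT and 66834 to 73111 in *Pctp*-/- mice on MCD. Most of that sum was *Alb*, which rose with diet in WT mice (0.66), while *Hnf4a* and *Apoa1* fell (-1.10 and -0.45). The 6 macrophage markers summed to 137 to 225 FPKM in WT and 110.3 to 118 in *Pctp*-/- mice on MCD, and 43.6 to 116 on chow. All 6 were called higher with diet in WT mice, against 34.5% of all genes, and 3 of 6 in *Pctp*-/- mice, against 26.0%. *Itgam*, called in each genotype, passed the filter only through mice on MCD, so that it had to differ. Its means in WT and *Pctp*-/- mice were 0.184 and 0.223 FPKM on chow and 1.44 and 1.32 on MCD. The 5 neutrophil markers, of which 2 were tested, summed to 17.8 to 22.8 and 5.78 to 13.7 on MCD and 0.147 to 3.32 on chow. None of the tested markers of 8 cell types was called between the genotypes on MCD, against 0.818% of all genes. At that share a call among so few markers was unlikely. All 6 macrophage, 5 endothelial and 2 tested neutrophil markers were lower in *Pctp*-/- mice (medians -0.53, -0.18 and -1.08, against -0.09 over all genes). So were 4 of 4 tested cholangiocyte, 5 of 6 stellate cell, 2 of 5 hepatocyte, 1 of 2 tested lymphocyte and 2 of 4 red cell markers. In whole liver, fewer cells of a type and less RNA per cell cannot be told apart.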

How the data were processed

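RNA from whole liver of 12 mice, 3 in each of 4 groups, was extracted with miRNeasy and sequenced by Novogene. The authors deposited FPKM per gene, 1 column per mouse, and a table of read totals and mapping measures, used here for depth alone. The submitters' processing notes name the build mm10, and the aligner, counter and annotation are not given in the sources used here. FPKM hold no counts per gene, so the Wald test of the study was not run. Groups and replicate numbers come from the labels, and no pair of columns was identical. That the replicates are separate mice rests on those labels. Symbols and positions were taken from GENCODE M21 (GRCm38), which matched 34490 of 35275 gene IDs.

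limma 3.58.1 in R 4.3.3 was fitted to log2(FPKM + 1) of the 12466 genes with a mean of at least 0.5 FPKM over the 12 libraries, with 1 mean per group and a mean-variance trend. Tests were two-sided, with Benjamini-Hochberg adjustment over all genes tested and no minimum fold change. The method was tested on simulated data. Similarity to other genes was the share of 100-base stretches of a gene's transcripts found in other genes' transcripts. Exons of *Ephx1*, *Gclm* and *Gstt3* overlap another gene on the same strand, and those of *Gclm*, *Gss*, *Gstz1*, *Gstm5*, *Oplah*, *Keap1* and *G6pdx* overlap genes on the opposite strand. Whether counting used strand is not given in the sources used here.

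All members could be named. Full statistics were given to members called between genotypes, the 6 largest called rises and falls with diet, and a list of core genes such as *Nfe2l2* and *Nqo1*. The members and lists were chosen with earlier results of these data known. Alternatives covered pseudocounts, filters, scaling, the libraries fitted, a replicate block, moderation and each library left out, and sums over *Gsta1* or *Gstp1* and their relatives were added after seeing the data.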

Additional observations from a re-analysis of the deposited data

How the results depend on the processing

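The counts of members called with diet were 35 in WT and 32 in *Pctp*-/- mice, and stayed at 31 to 38 and 27 to 34 when each library was left out. With a minimum absolute log2 fold change of 1 they were 17 and 14. Over all genes the counts were 7110 and 6276, and 6171 to 7492 and 5254 to 6516 when each library was left out. With the minimum fold change they were 1777 and 1343. On chow the count between genotypes was 0 under every alternative run. On MCD the count of 6 became 3 with no filter on low values, 2 after median-of-ratios scaling, 2 with the minimum fold change and 0 when only the 6 MCD libraries were fitted, and 1 to 7 when each library was left out. Over all genes the count of 102 became, in the same order, 76, 55, 33, 19 and 27 to 173. For the difference of diet effects the count of members was 0 to 5 when each library was left out and 0 otherwise. Over all genes that count was 12, and 0 to 60 when each library was left out. The causes of these changes were not tested, beyond the fewer libraries or added genes that the alternatives themselves bring.

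Among the called members on MCD, the call held in 21 of 22 alternatives for *Gstm2*, 18 for *Gstm3*, 17 for *Ephx1*, 15 for *Gstm1* and 11 for *Gpx4*, and in 5 of 23 for *Gsta1* (adjusted p 0.00221 to 0.202 in limma). Over the 48 called results of named genes, each a gene in a comparison, 991 of 1056 alternatives kept the call, 65 lost it and 0 turned its direction. Most of the lost calls were those between the genotypes on MCD. The genes named for diet include the largest changes, so the share kept need not hold for called members that were not named.

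For the 51 results of named genes that were not called, 15 alternatives gave a call. Changes of sign were found only in results that were not called. With diet in WT mice, *Gclm* was -0.01 after median-of-ratios scaling and *Sod1* 0.19 after quantile normalization. With diet in *Pctp*-/- mice, *Gclm* was 0.03 after quantile normalization and -0.07 to 0.0 with a library left out, and *Gsta1* summed with its relatives was 0.34. On chow, *Gstm2* was -0.02 after quantile normalization and -0.07 to 0.11 when a library was left out, *Ephx1* -0.02 to 0.19, *Gsta1* -0.21 to 0.29, and -0.2 when summed, and *Gstm1* -0.16 to 0.0. On MCD, after quantile normalization and median-of-ratios scaling, *Gclm* was 0.04 and 0.05, *Keap1* 0.06 and 0.05 and *Nfe2l2* 0.08 and 0.1. With a library left out there, *Nfe2l2* was -0.13 to 0.12, *Gpx1* -0.09 to 0.12 and *Nqo1* -0.33 to 0.09. In the difference of diet effects, *Keap1* was 0.01 after quantile normalization and *Nqo1* -0.37 to 0.06 with a library left out.

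Replicate numbers name different mice. Deviations of same-numbered mice correlated at -0.0972 to 0.225, above 0.1 in 8 of 18 pairs, and those of differently numbered mice in 3 of 36. Of 12 mice, 9 correlated best with a mouse of their own number, a hint from the data and no part of the design. Since not every same-numbered pair was above 0.1 and the labels give no shared source, no pairing was assumed. With the replicate block the counts were 36, 33, 0, 6 and 0 for diet in WT, diet in *Pctp*-/- mice, knockout on chow, knockout on MCD and the difference. Over all genes the block moved the counts on chow from 17 to 32 and of the difference from 12 to 59. With 3 mice a group and no counts, differences in genes of few FPKM are the least certain.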
